A study of Mus musculus with 18 samples.

Results

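The guanylin system of the mouse colon is described here through 5 genes, taken from the 45777 genes of the count table by their symbols. Guca2a and Guca2b encode the ligands guanylin and uroguanylin, Gucy2c encodes their receptor, Prkg2 encodes a kinase that cyclic GMP switches on, and Pde5a encodes an enzyme that breaks cyclic GMP down. All 5 had enough counts to be tested, in a set of 18848 tested genes. The rule that picked the genes by symbol used no measured value, although earlier results of these data were known when they were chosen.

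Guanylin and uroguanylin are small peptide hormones that intestinal epithelial cells release into the gut lumen. They bind guanylate cyclase C, the product of Gucy2c, on the apical face of epithelial cells, and the receptor then makes cyclic GMP inside the cell. Cyclic GMP activates the membrane-bound kinase of Prkg2, which leads to opening of the chloride channel Cftr and to inhibition of the sodium-hydrogen exchanger Slc9a3, so that salt and water enter the lumen. Phosphodiesterases such as that of Pde5a end the signal, and Pde5a is also known from vascular and visceral smooth muscle. Bacterial heat-stable enterotoxins act on the same receptor.

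Messenger RNA was sequenced from whole colon of 8-week-old germ-free male C57BL/6J mice, which live without microbes. DKO mice (Lao1-/- Il4i1-/-), LAO1KO mice (Lao1-/-) and wild-type (WT) mice drank either water with 2.5% dextran sulfate sodium (DSS), a sulfated sugar polymer used to damage the lining of the colon, for 24 hours, or sterile water without it. The deleted genes each encode an oxidase of L-amino acids. Each of the 6 groups held 3 libraries, described as biological replicates A, B and C, and the sources used here do not name the exons deleted or the segment of colon taken. In whole tissue, fewer cells of a type and less RNA per cell cannot be told apart.

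Library totals ran from 26003174 to 36553193 counts. The label LAO1KO could not be checked by Lao1, which had 0 to 10 counts in the DKO libraries, 0 to 10 in those labelled LAO1KO and 0 to 4 in WT. Il4i1 had no count in the 6 DKO libraries, and 0 to 50 in LAO1KO and 0 to 52 in WT libraries. The overlapping gene model Il4i1b, whose reads may not be separable from it, had 0 to 12, 0 to 47 and 5 to 51 counts in DKO, LAO1KO and WT libraries. Epithelial markers were present in all libraries, and none of the 12 fixed for the epithelium was at 0. On the main axis of variation, which held 20.1% of the variance, WT water replicate B (-91.1) and LAO1KO water replicate A (-71.5) stood apart from the other 16 libraries (-28.5 to 48.5). Both are water libraries, so for the members, differences from water by edgeR's test are given with and without the pair where a call changed. For other genes named below this was done for some comparisons, and a missing value does not mean an unchanged call. Mitochondrial mRNAs took 44.9% of the counts of WT DSS replicate C, and 6.89 to 26.9% of the counts of the other libraries.

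The 2 ligand genes are neighbours, and the ends of their coding sequences, which encode the secreted hormones, show what they share. Guca2a lies at chr4:119637704-119639471 on the plus strand of GRCm38 and Guca2b at chr4:119656607-119658954 on the minus strand, with 17.1 kb between them. The last 45 coding bases before the stop codon, from the GENCODE M21 transcripts, are given with the cysteine codons in capitals, since cysteine bridges hold both hormones in their active shape.

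Guca2a coding end: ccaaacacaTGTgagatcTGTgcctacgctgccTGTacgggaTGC

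Guca2b coding end: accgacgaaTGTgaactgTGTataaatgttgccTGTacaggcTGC

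Each end carries 4 cysteine codons at the same places, and 29 of the 45 bases are identical. Over the aligned coding sequences identity was 51.3%, and the longest run of bases shared by both was 10. The remaining 3 genes lie on other chromosomes, Gucy2c at chr6:136697284-136781765, Prkg2 at chr5:98929773-99037351 and Pde5a at chr3:122728947-122859374. The pseudogene Gm3470 lies within Prkg2 on the same strand and had 58 counts over all libraries together, while both gene models antisense to Pde5a had 0.

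The start regions of both ligand genes are given because the results turn on this pair of neighbours. They run from 250 bases before to 50 after the start site, come from RefSeq on GRCm38.p6, and lie at chr4:119637482-119637781 on the plus strand and chr4:119658896-119659195 on the minus strand. Capitals mark the single match to a searched motif.

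Guca2a start region: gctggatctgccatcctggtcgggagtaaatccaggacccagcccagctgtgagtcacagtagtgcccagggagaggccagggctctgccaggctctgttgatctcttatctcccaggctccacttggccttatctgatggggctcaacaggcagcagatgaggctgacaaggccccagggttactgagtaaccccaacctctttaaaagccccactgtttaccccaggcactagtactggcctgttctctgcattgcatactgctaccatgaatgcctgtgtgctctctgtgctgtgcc

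Guca2b start region: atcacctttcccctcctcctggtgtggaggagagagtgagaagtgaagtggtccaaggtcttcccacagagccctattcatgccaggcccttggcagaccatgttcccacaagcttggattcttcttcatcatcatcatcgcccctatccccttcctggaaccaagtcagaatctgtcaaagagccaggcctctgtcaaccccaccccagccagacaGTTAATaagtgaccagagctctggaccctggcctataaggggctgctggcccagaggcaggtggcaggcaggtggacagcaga

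Searches on both strands used 5 motifs. The HNF1 motif gttaat was found in Guca2b, with its first base 33 bases before the start site, and is held by 7.10% of 32851 promoters of this length. No match in either region was found for the CDX motif tttatg (held by 11.9% of promoters), the HNF4 motif caaagt (14.4%), the E-box cacgtg (7.15%) or the TATA-box motif, spelled tataaa (13.6%). A match of these letters is a description and not a binding site.

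Guca2a was by far the most abundant of the 5 mRNAs. Per kilobase of exon, the level averaged over the 18 libraries was 4036 ± 1139 CPM (counts scaled to library totals adjusted by TMM factors; SD) for Guca2a, 63.2 ± 12.5 for Gucy2c, 36.0 ± 11.2 for Guca2b, 17.3 ± 6.61 for Prkg2 and 14.01 ± 1.57 for Pde5a. The ranges over libraries of Gucy2c and Guca2b met (46.4 to 87.0 and 10.5 to 52.0 CPM per kb), as did those of Prkg2 and Pde5a (3.34 to 29.6 and 11.4 to 16.9), whereas Guca2a (2693 to 7703) stood above all others. The CPM values below are scaled in the same way without correction for length, and log2 fold changes come from edgeR's quasi-likelihood test over all tested genes, with a difference called where the Benjamini-Hochberg adjusted p was under 0.05. Counts of the members were 286 or more in every library. The smallest, 286 counts of Guca2b in WT water replicate B, has an exact Poisson 95% interval of 254 to 321, which covers counting error only. Counting error was not small beside the spread between mice in every group. Guca2b had 994 counts in DKO water replicate A (exact Poisson 95% interval of 933 to 1058), and the DKO water libraries ranged only from 31.7 to 34.3 CPM.

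**Figure D1:**
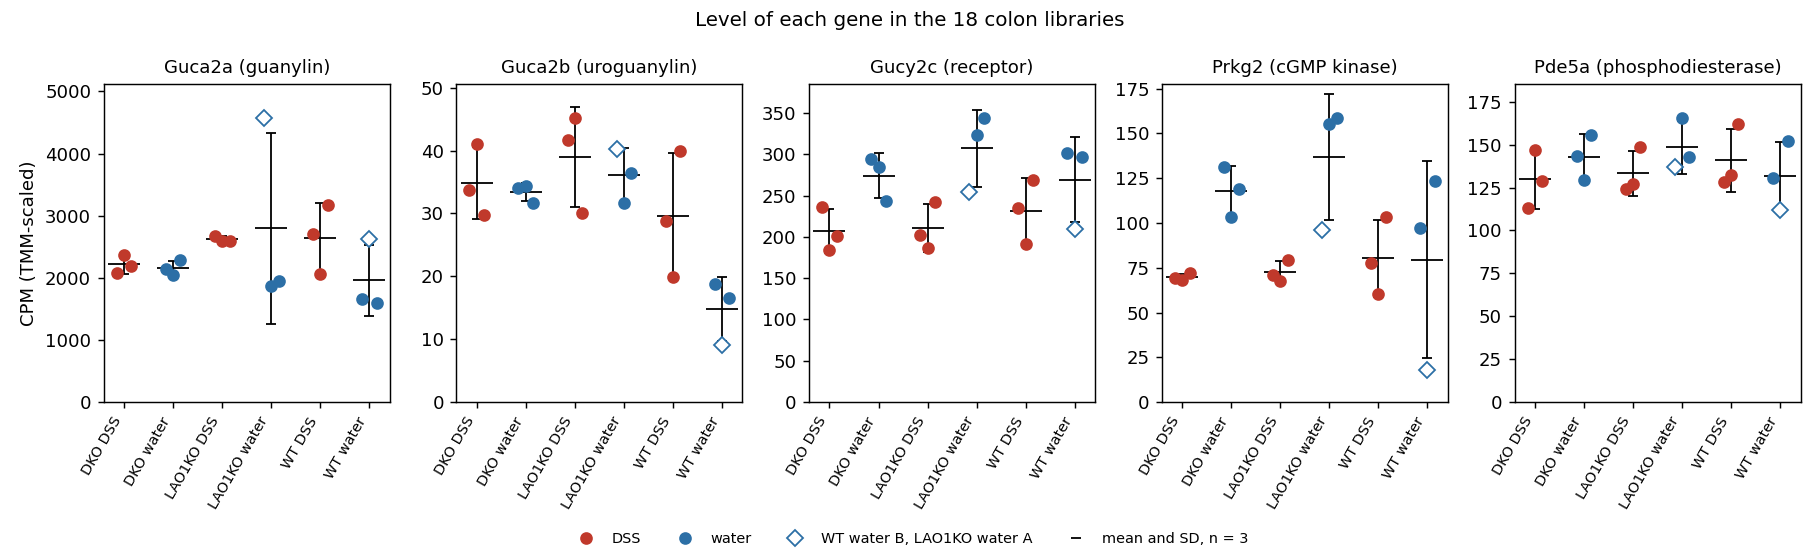
TMM-scaled CPM (vertical axes, linear, from 0) of the 5 genes in each of the 18 libraries, by genotype and treatment (horizontal axis), with bars for the mean and SD of 3 libraries. Open diamonds mark WT water replicate B and LAO1KO water replicate A. The first is lowest for Guca2b (9.12 CPM) and Prkg2 (17.9 CPM), and the second is highest for Guca2a (4576 CPM).

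DSS for 24 hours was set against water to ask what early injury does to the pathway. Averaged over the 3 genotypes, the receptor Gucy2c was lower under DSS, by 0.39 on the log2 scale, and it was the single member called. Over all tested genes 15.9% were called, with 9.18% of all genes lower and 6.72% higher. The ligand Guca2b and the kinase Prkg2 moved further in single genotypes, but their averages did not pass. Without the pair of libraries that stand apart, 16.9% of genes were called (7.63% higher and 9.29% lower), and 3 of the 5 members passed: Gucy2c and Prkg2 were lower and Guca2a was higher.

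Gucy2c had 236, 184 and 201 CPM in DKO mice given DSS, against 295, 284 and 244 CPM in DKO mice on water. In LAO1KO mice it had 203, 186 and 242 CPM under DSS, against 255, 323 and 344 CPM under water. In WT mice it had 235, 191 and 269 CPM under DSS, against 302, 210 and 297 CPM under water. DSS and water libraries did not overlap in DKO or LAO1KO mice. In WT they overlapped through water replicate B, the lowest of its group. An exact permutation test of 3 libraries against 3 cannot give a p below 0.1. A lack of overlap, here and below, is thus a description and not a call. The share of all tested genes that separate in this way is not given here.

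Averaged over genotypes, the log2 fold change of Gucy2c was -0.39 ± 0.10 (SE; edgeR adjusted p = 0.0157), a level 23.7% lower. Leaving out each of the 18 libraries in turn kept it between -0.36 and -0.45 with an adjusted p of at most 0.0375. By genotype it was -0.40 ± 0.17 in DKO (adjusted p = 0.474), -0.55 ± 0.17 in LAO1KO (0.162) and -0.22 ± 0.17 in WT (0.429), none of which passed. The difference between genotypes in this response did not pass either, at -0.19 ± 0.25 for DKO against WT (0.754) and -0.33 ± 0.25 for LAO1KO against WT (0.531). Without the pair that stands apart, the average was -0.48 ± 0.09 (0.00157), and the LAO1KO response narrowly passed at -0.68 ± 0.15 (0.0499), where 0.801% of genes were called.

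Prkg2 encodes cyclic GMP-dependent protein kinase II, the epithelial form. It had 69.4, 68.0 and 71.9 CPM in DKO mice under DSS, against 131, 103 and 119 CPM under water. LAO1KO mice had 71.2, 67.4 and 79.1 CPM under DSS, against 96.0, 155 and 159 CPM under water. WT mice had 77.6, 60.5 and 103 CPM under DSS, against 97.2, 17.9 and 123 CPM under water. All DSS libraries of both knockouts lay below all their water libraries, whereas WT water ranged from the lowest value of the 18 libraries to one above every DSS library.

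The averaged log2 fold change of Prkg2 over all 18 libraries was -0.55 ± 0.26 (adjusted p = 0.156). It was -0.76 ± 0.45 in DKO (0.620), -0.91 ± 0.45 in LAO1KO (0.348) and 0.01 ± 0.45 in WT (0.988). The result turned on WT water replicate B, since without it the average was -0.71 ± 0.12 (0.00144) and the WT value -0.46 ± 0.21 (0.224). Without the pair that stands apart the average was -0.78 ± 0.10 (1.54e-04), with -0.75 ± 0.16 in DKO (0.0487; 0.328% of genes called), -1.13 ± 0.17 in LAO1KO (0.00607) and -0.46 ± 0.17 in WT (0.103).

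Pde5a varied least between libraries. Its group means lay between 130 ± 16.9 CPM in DKO mice under DSS and 148 ± 15.2 CPM in LAO1KO mice on water (SD, n = 3 each), and DSS and water libraries overlapped in every genotype. The averaged log2 fold change was -0.07 ± 0.08 (adjusted p = 0.616), with a 95% interval of -0.24 to 0.11.

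Guca2a, the main colonic ligand, had 2080, 2375 and 2188 CPM in DKO mice under DSS, against 2142, 2038 and 2282 CPM under water. LAO1KO mice had 2675, 2596 and 2586 CPM under DSS, against 4576, 1863 and 1944 CPM under water. WT mice had 2698, 2057 and 3175 CPM under DSS, against 1656, 2618 and 1600 CPM under water. In LAO1KO and WT, 1 water library each, replicate A and replicate B, reached or exceeded the DSS level, and the other water libraries lay below all DSS libraries of their genotype.

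Those are the same 2 libraries that stand apart. With them, the averaged log2 fold change of Guca2a was 0.13 ± 0.16 (adjusted p = 0.628), with 0.04 ± 0.28 in DKO (0.980), -0.09 ± 0.28 in LAO1KO (0.897) and 0.43 ± 0.28 in WT (0.325). Without them it was 0.40 ± 0.09 (0.00775), with 0.04 ± 0.15 in DKO (0.934), 0.45 ± 0.16 in LAO1KO (0.210) and 0.70 ± 0.17 in WT (0.0176; 8.84% of genes called).

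Guca2b, the ligand otherwise best known from the small intestine, had 33.7, 41.1 and 29.8 CPM in DKO mice under DSS, against 34.0, 34.3 and 31.7 CPM under water. LAO1KO mice had 41.7, 45.2 and 30.1 CPM under DSS, against 40.2, 31.6 and 36.4 CPM under water. WT mice had 28.8, 19.9 and 39.9 CPM under DSS, against 18.9, 9.12 and 16.6 CPM under water. The groups overlapped in both knockouts, and in WT every DSS library lay above every water library.

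In WT the log2 fold change of Guca2b was 0.99 ± 0.25 (SE; edgeR adjusted p = 0.0193), which is 1.98-fold higher under DSS, in a comparison where 12.9% of genes were called. The call rests on single libraries. It did not pass without WT DSS replicate C, the library richest in mitochondrial mRNA (0.70 ± 0.25; 0.112), without WT water replicate B (0.73 ± 0.23; 0.0801), or without the pair that stands apart (0.73 ± 0.23; 0.0612). Without the pair 8.84% of genes were called, and the share is not given for the refits without 1 library. The change was 0.06 ± 0.25 in DKO (0.964) and 0.11 ± 0.25 in LAO1KO (0.852). DSS changed 0.0159% of genes in DKO mice and 0.196% in LAO1KO mice, and none of the 5 members in either. At an unadjusted p under 0.05 the counts were 1807 and 2936 genes, with Gucy2c among them in both knockouts.

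**Figure D2:**
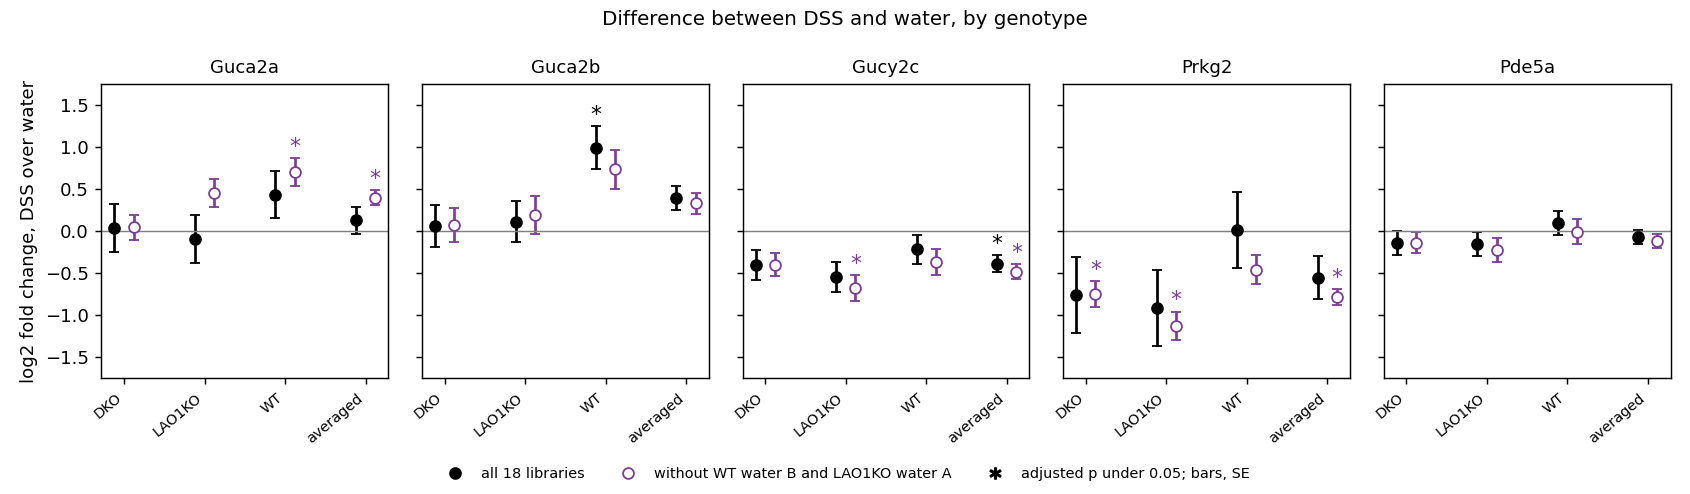
Log2 fold change of DSS over water (vertical axis) of each gene in each genotype and averaged over genotypes (horizontal axis), with SE bars. Filled points use all 18 libraries and open points leave out WT water replicate B and LAO1KO water replicate A, and asterisks mark an adjusted p under 0.05. The averaged change of Gucy2c passes both ways (-0.39 and -0.48), and that of Prkg2 passes without the pair (-0.78).

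Epithelial content was compared next, because the ligands, the receptor and Prkg2 act in the epithelium. Each member's count was divided by the summed counts of 12 epithelial markers of the same library, and DSS and water were permuted within genotypes. None of the 5 ratios passed the 2-sided exact permutation test after adjustment over the 5. The averaged log2 ratio was 0.26 for Guca2a (p = 0.0893, adjusted 0.243), 0.46 for Guca2b (0.105, adjusted 0.243), -0.31 for Gucy2c (0.146, adjusted 0.243), -0.33 for Prkg2 (adjusted exact p = 0.587) and 0.01 for Pde5a (adjusted exact p = 0.944). The result depended on the denominator. Relative to Epcam alone, Guca2a (0.52) and Guca2b (0.73) were higher under DSS with an adjusted exact permutation p of 0.005 each. A ratio also moves with its denominator, and these ratios used all 18 libraries. Epcam itself was at -0.25 ± 0.10 in the averaged comparison without the pair that stands apart (edgeR adjusted p = 0.103). It was at -0.39 ± 0.20 in DKO mice with all libraries (0.568). Relative to the summed absorptive colonocyte markers they were 0.48 and 0.69 higher (adjusted exact p = 0.00563 each), while Gucy2c was at -0.05 and -0.09 and did not pass with either.

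Some markers of absorptive colonocytes, which carry the receptor, moved in the same direction as Gucy2c. In the averaged DSS comparison, 6 of 15 absorptive colonocyte markers fell and none rose, with a list median of -0.27 against 0.03 over all tested genes. Without the pair 5 fell, and the list median was -0.01. Those that fell with all libraries include Cyp2c55 (-0.76 ± 0.10; 3.10e-04), Muc3 (-0.77 ± 0.11; 6.34e-04) and Slc26a2 (-0.94 ± 0.16; 0.00198). The list did not fall as a whole in WT mice. Without the pair, 1 marker rose there, Slc20a1 (1.05 ± 0.25; 0.0203), 2 fell, and the list median was 0.41. Their summed level was 12819 to 16412 CPM in DKO mice under DSS and 17645 to 24046 under water, in LAO1KO mice 12268 to 17550 under DSS and 16356 to 24552 under water, and in WT mice 16587 to 23325 under DSS and 17122 to 21977 under water. None of these markers was at 0 in any group. Of the 12 epithelial markers 3 fell (Cdh1, Ezr and Tspan8), of 14 goblet cell markers 6 rose and 2 fell, and of 12 smooth muscle markers none was called. Without the pair 2 epithelial markers fell (Ezr and Tspan8) and 1, Krt18, rose (0.72 ± 0.14; 0.00361), and of the goblet cell markers 6 rose and none fell. Of 12 neuron and glia markers 9 rose, or 4 without the pair. All 13 mitochondrial mRNAs rose, with a median of 1.25. The part of these shifts in the members' changes was not tested.

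Transcript length also moved with the comparison. The ligand mRNAs are short (594 exon bases for Guca2a and 870 for Guca2b), and the others are long (3959 for Gucy2c, 5369 for Prkg2 and 9831 for Pde5a). In the WT comparison of DSS with water the median log2 fold change was 0.42 over the 850 tested genes of 500 to 1000 exon bases and -0.07 over the 8319 genes of 3500 to 10000 bases. Averaged over genotypes the medians were 0.21 and -0.02. Without the pair that stands apart, the averaged medians were 0.27 over 884 short genes and -0.02 over 8368 long genes. In WT they were then 0.47 and -0.07. For LAO1KO and DKO against WT, the medians of the short genes were 0.25 and 0.07 on water, and -0.16 and -0.21 under DSS. For the DSS response against that of WT they were -0.42 in LAO1KO and -0.30 in DKO. The medians of the long genes lay between -0.05 and 0.09 in these genotype comparisons. These length classes were set after the values were seen, and the part of length in the members' changes was not tested.

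The genotypes were compared to ask whether loss of Lao1, or of both oxidases, alters the pathway. The single member called was Guca2b, which was higher in DKO than in WT mice on water. Its 33.4 ± 1.425 CPM in DKO mice and 36.1 ± 4.28 CPM in LAO1KO mice compare with 14.8 ± 5.09 CPM in WT mice (SD, n = 3 each), and every knockout water library lay above every WT water library. Under DSS Guca2b had 34.9 ± 5.73 CPM in DKO, 39.0 ± 7.92 CPM in LAO1KO and 29.6 ± 10.02 CPM in WT mice. The groups under DSS overlapped. The separation on water is a description, since an exact permutation test of 3 libraries against 3 cannot give a p below 0.1.

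On water the log2 fold change of Guca2b was 1.17 ± 0.25 for DKO over WT (SE; edgeR adjusted p = 0.0458), or 2.25-fold, where 0.621% of genes were called. It was 1.28 ± 0.25 for LAO1KO over WT (adjusted p = 0.0930), or 2.43-fold, where 0.0531% of genes were called. DESeq2 called both (adjusted p = 0.00229 and 7.92e-04), and it called 4.41% and 1.86% of the genes it gave an adjusted p in the DKO and LAO1KO comparisons. The DKO call is close to the threshold and was lost in 5 of 6 refits without 1 library, with adjusted p-values between 0.0440 and 0.217 over the 6. The share of all genes called in those refits is not given here. Without WT water replicate B it was 0.89 ± 0.23 (0.217), and without the pair that stands apart the values were 0.89 ± 0.23 for DKO (0.163) and 0.95 ± 0.25 for LAO1KO (0.340).

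Under DSS the differences of Guca2b from WT were 0.24 ± 0.25 for DKO (0.757; 0.255% of genes called) and 0.40 ± 0.25 for LAO1KO (0.828; 0.0849% called). The DSS response of Guca2b differed from that of WT by a log2 difference of -0.93 ± 0.35 in DKO (adjusted p = 0.232) and -0.88 ± 0.35 in LAO1KO (0.248), and neither interaction passed. Over all genes, 0.0584% were called for the DKO interaction and 0% for that of LAO1KO, where 3005 genes had an unadjusted p under 0.05. Averaged over treatments, Guca2b was at 0.70 ± 0.18 for DKO over WT (0.111; 0.562% of genes called) and 0.84 ± 0.18 for LAO1KO over WT (0.123; 0.133% called). These comparisons share their WT libraries, so their values are not independent of each other.

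None of the other 4 genes was called between a knockout and WT. For DKO and LAO1KO against WT on water their log2 fold changes ran from 0.03 to 0.57 and from 0.17 to 0.78, and under DSS from -0.26 to -0.12 and from -0.15 to -0.01, with adjusted p-values of 0.426 or more. No member was called between DKO and LAO1KO either (0.0796% of genes called on water and 0.0637% under DSS). With 3 mice a group the intervals are wide, and for Prkg2 in LAO1KO over WT on water the 95% interval was -0.18 to 1.74.

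**Figure D3:**
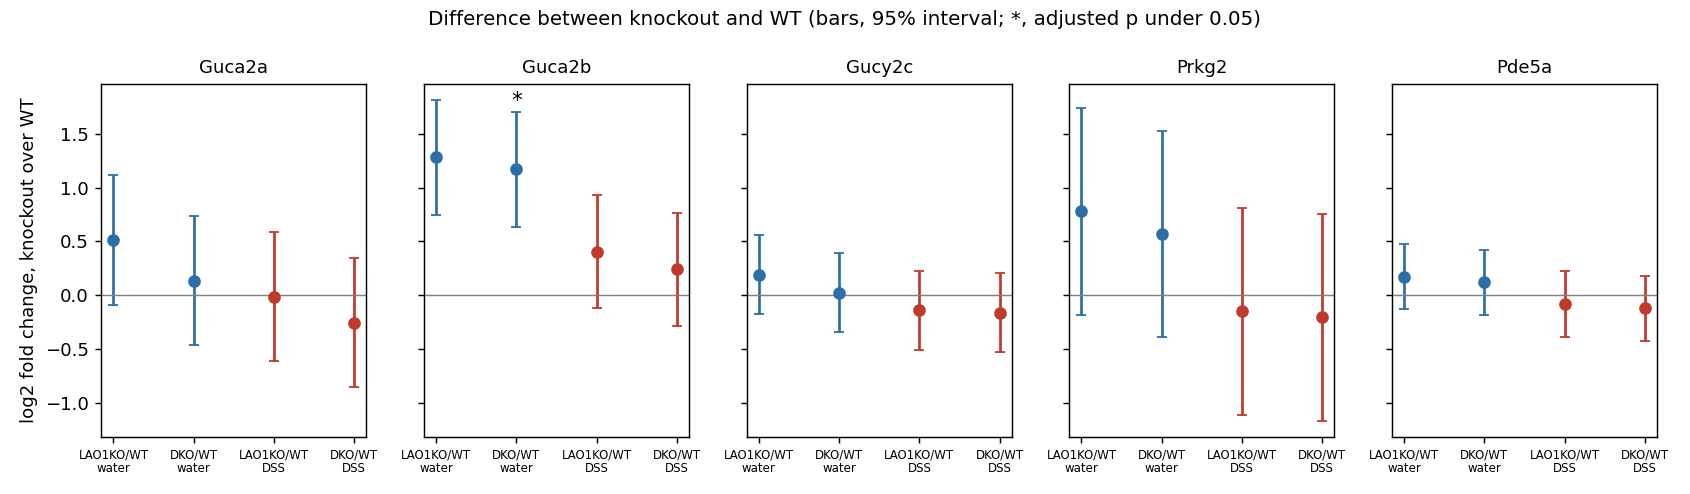
Log2 fold change of each knockout over WT (vertical axis) under water (blue) and DSS (red) for the 5 genes, with 95% intervals, and an asterisk where the adjusted p is under 0.05. Guca2b under water is at 1.28 in LAO1KO and 1.17 in DKO, and both intervals lie above 0, while those under DSS (0.40 and 0.24) include 0.

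The count ratio of the ligands does not depend on library scaling. Counts of Guca2a per count of Guca2b were 57.8 to 73.4 in DKO mice under DSS and 59.3 to 71.9 under water. LAO1KO mice had 57.4 to 85.9 under DSS, and 113.8, 58.9 and 53.3 under water. WT mice had 79.6 to 103 under DSS, and 87.9, 287 and 96.6 under water. All 6 DKO libraries lay below all 6 WT libraries, and the LAO1KO libraries overlapped both. The highest values in LAO1KO and WT came from the libraries that stand apart.

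Guca2b also lies near one of the deleted genes. Lao1 (chr4:118961578-118968912) is 0.688 Mb from Guca2b and 0.669 Mb from Guca2a. Among 31 tested genes within 1 Mb of Lao1, Guca2b was the single gene called in any of the 4 knockout comparisons with WT, and it was called in DKO against WT on water alone. The median log2 fold change of these 31 genes was -0.03 in that comparison and 0.10 in LAO1KO against WT on water. The distance of 1 Mb was taken after earlier results were known, and the part of position in the difference was not tested.

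Around the members, genes of cyclic GMP signalling were read in fixed lists for the averaged DSS comparison. Over all tested genes 15.9% were called in that comparison and 12.9% in WT alone. A list called at a similar rate does not stand out from other genes, and its calls are then descriptions of single genes. Of 10 tested enzymes and receptors that make cyclic GMP, or supply them with signals, 2 rose and none fell. They were the soluble cyclase subunit Gucy1a1 (0.62 ± 0.16; adjusted p = 0.0197) and the natriuretic peptide receptor Npr1 (0.73 ± 0.22; 0.0309), and neither passed without the pair that stands apart (0.0668 and 0.0713). None of the 12 tested phosphodiesterases besides Pde5a was called. In WT alone Pde9a rose (0.48 ± 0.13; 0.0259), and Pde2a (-0.58 ± 0.16; 0.0227) and Pde3a (-0.63 ± 0.19; 0.0364) fell. Without the pair Pde2a still passed (-0.58 ± 0.16; 0.0342), and Pde9a (0.0569) and Pde3a (0.180) did not.

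Among 12 tested effectors and substrates, Rgs2, a regulator of G proteins that cyclic GMP kinase phosphorylates, rose (0.42 ± 0.09; 0.00603), and Vasp, a cytoskeletal substrate of the kinase, fell (-0.55 ± 0.10; 0.00200). Prkg1, the smooth muscle form of the kinase, was at 0.10 ± 0.17 (0.729). In WT alone Vasp (-0.70 ± 0.17; 0.0152), the cyclic nucleotide exporter Abcc4 (-0.97 ± 0.26; 0.0226) and Gtf2i (-0.49 ± 0.12; 0.0184) fell. Without the pair Vasp (-0.42 ± 0.13; 0.0493) and Gtf2i (-0.51 ± 0.13; 0.0283) passed in WT and Abcc4 did not (-0.62 ± 0.22; 0.0907).

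Of 16 listed genes for fluid and ion transport, 4 fell and 1 rose, with a list median of -0.10 against 0.03 over all tested genes. Whether their changes follow from that of the receptor was not tested. The sodium-hydrogen exchanger Slc9a2 fell most clearly (-0.70 ± 0.11; 7.65e-04). It had 159 to 225 CPM under DSS and 304 to 383 under water in DKO mice, 148 to 269 CPM under DSS and 341 to 388 under water in LAO1KO mice, and 217 to 272 CPM under DSS and 306 to 352 under water in WT mice, so that the treatments did not overlap in any genotype. The bicarbonate cotransporter Slc4a4 (-0.61 ± 0.13; 0.00614), the potassium channel Kcnn4 (-0.36 ± 0.11; 0.0358) and the exchanger Slc9a3 (-0.86 ± 0.26; 0.0407) also fell, although Kcnn4 did not pass without the pair (0.0760). Slc9a3 reached 297 CPM in 1 WT water library and at most 146 CPM in the water libraries of both knockouts. Without the pair its averaged change was -0.59 ± 0.13 (0.00695). By genotype Slc9a3 was then at -1.25 ± 0.23 in LAO1KO (0.0234), -0.42 ± 0.21 in DKO (0.413) and -0.10 ± 0.23 in WT (0.840). Cftr was at -0.25 ± 0.10 (0.0841). Pdzk1 was the gene called higher (2.69 ± 0.88; 0.0499), at 0.537 CPM or less in every library, and it did not pass without the pair (0.0832). Without the pair 4 genes of the list fell and none rose, with a list median of -0.04, and the fourth was the potassium channel Kcnq1 (-0.41 ± 0.11; 0.0163), which was at -0.25 (0.257) with all libraries.

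Within single knockouts none of the genes of these lists passed under DSS with all libraries. Without the pair Slc9a3 (-1.25 ± 0.23; 0.0234) and Slc4a4 (-0.89 ± 0.13; 0.00596) fell in LAO1KO mice, and Rgs2 rose in DKO mice (0.67 ± 0.12; 0.0319). Of 16 epithelial transcription factors, Hes1 rose (0.36 ± 0.08; 0.00832), and Klf4 (-0.64 ± 0.15; 0.00849), Spdef (-0.41 ± 0.13; 0.0374) and Foxa1 (-0.17 ± 0.05; 0.0442) fell in the averaged comparison. Without the pair Spdef (0.0885) and Foxa1 (0.0671) no longer passed, while falls of Hnf4g (-0.51 ± 0.13; 0.0130) and Klf5 (-0.26 ± 0.07; 0.0167) did. Krt18, Kcnq1, Hnf4g and Klf5 are named because their calls changed, and were chosen after their values were seen.

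**Figure D4:**
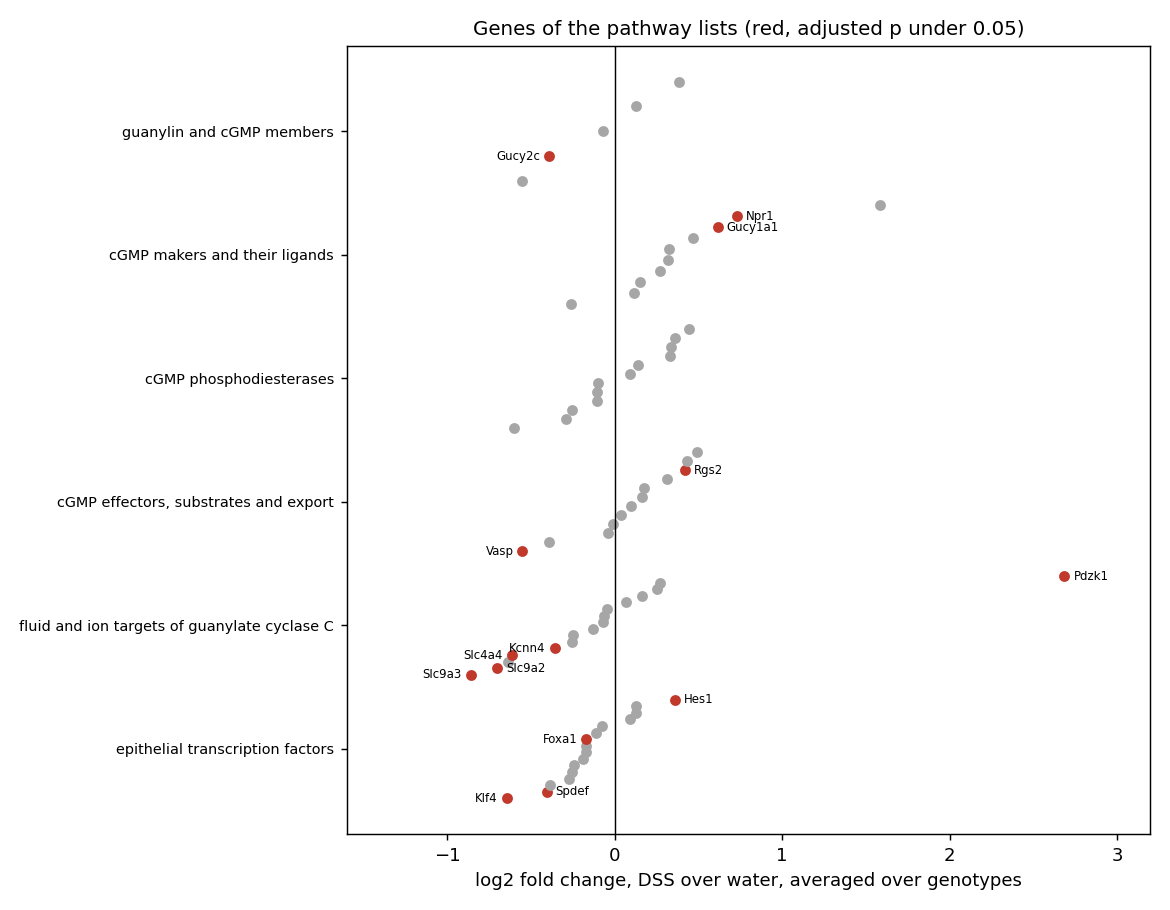
Log2 fold change of DSS over water averaged over genotypes (horizontal axis) for each tested gene of the members and of 5 fixed lists (rows, genes sorted by value within a row). Red points have an adjusted p under 0.05 and carry their names. Gucy2c (-0.39) sits to the left of 0, as do Slc9a2 (-0.70), Slc4a4 (-0.61) and Slc9a3 (-0.86).

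The genes whose level followed each member most closely over the 18 libraries differed from member to member. Pearson's r of log2 CPM, over 13637 genes, was highest for Guca2a with Cox6a1 (0.90), Uqcc2 (0.90) and Mrps21 (0.89), which act in mitochondria. Guca2b went with Hyi (0.95), Phf1 (0.92) and Thap3 (0.90). Hyi lies 0.599 Mb from Lao1 and was not called in either knockout against WT, on water or under DSS. Its level ran from 8.00 to 60.7 CPM with a median of 45.8. Gucy2c went with Mfsd9 (0.97), the fatty acid transporter Slc27a4 (0.94) and the brush-border protease Mep1a (0.93). Prkg2 went with the bile acid transporter Slc10a2 (0.97), the growth factor Bmp3 (0.94) and Agmo (0.94). Pde5a had its highest values at 0.83, with Zfp558, Mid2 and Plekha3. The ligands correlated with each other at 0.34, and Gucy2c correlated with Guca2a at -0.35 and with Guca2b at -0.02. These libraries share treatment, genotype and the composition of each piece of tissue, and the correlations are descriptions without a test. Both libraries that stand apart are included, and a few extreme libraries can carry a correlation. Values without the pair are not given here.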

How the data were processed

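The deposited table holds the authors' raw read counts per gene symbol for 18 libraries, made with a stranded mRNA kit and paired reads of 150 bases, per the labels' protocols. The submitters' processing notes name HISAT2 2.1.0, StringTie 2.1.3b, Trimmomatic 0.38, FastQC 0.11.7, DESeq2 1.42.1 and R 4.3.2, and the builds GRCm38 and mm10. How strand and multiply mapped reads were counted is not given in the sources used here.

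In R 4.3.3, edgeR 4.0.16 filtered genes with filterByExpr, scaled libraries by TMM and fitted quasi-likelihood models with robust dispersion to all 18 libraries, with 1 mean per group, so that the groups share 1 estimate of the spread. The model had 16 contrasts, each adjusted by the Benjamini-Hochberg method over 18848 genes, with a threshold of 0.05. SE was taken from the log2 fold change and the F statistic. Single adjusted p-values beside a log2 fold change come from this test unless another tool is named. The script was tested on simulated data. Alternatives were RLE factors, mitochondrial mRNAs left out, no filter, a replicate block, only the groups compared, limma voom 3.58.1 with library weights, DESeq2 1.42.0 and each library left out. Leaving out the pair of libraries that stand apart was chosen after seeing the data. The members and lists were chosen with earlier results of these data known. Named genes were the members, up to 4 called genes of a list with the smallest p, Prkg1, Cftr and Slc9a3, and the 3 most correlated genes per member with at least 1 CPM. Cdh1, Ezr and Tspan8 were the marker genes called in their list. The labels describe biological replicates, 1 library each, and p-values measure the spread between these libraries. Positions and exon lengths come from GENCODE M21, on GRCm38.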

Additional observations from a re-analysis of the deposited data

How the results depend on the processing

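The fall of Gucy2c under DSS, averaged over genotypes, passed under all 7 other settings (-0.39 to -0.49) and in all 18 refits without 1 library (-0.36 to -0.45). For the averaged comparison the number of members called was 3 with limma voom, which down-weights unusual libraries and called 6224 of 18848 genes against 2996 in edgeR's test, and 3 without the pair of libraries that stand apart. Guca2a was then at 0.34 and 0.40, and Prkg2 at -0.66 and -0.78, the first value of each from voom. Leaving out 1 library gave 1 to 2 called members, with Guca2b at 0.30 to 0.46 and Prkg2 at -0.40 to -0.71. For DSS in WT, no member (0) was called when only the groups compared were fitted, and Guca2b was then at 0.97 (adjusted p = 0.118). It was at 0.68 with voom (0.0503) and 0.73 without the pair (0.0612), and leaving out 1 library gave 0 to 1 called members and 0.70 to 1.20. The share of all genes called is not given here for the first 2 of these WT fits, nor for any refit without 1 library. A lost call of a member can thus not be told apart there from fewer calls over all genes. Prkg2 in WT, at 0.01 and not called, turned to -0.00752 with RLE factors, -0.00352 without mitochondrial mRNAs, -0.0305 without the filter, -0.0120 with only the groups compared, -0.137 with voom, -0.0142 with DESeq2 and -0.46 without the pair, and ran from -0.46 to 0.49 without 1 library. Pde5a in WT was at -0.00695 without the pair and -0.0206 to 0.23 without 1 library. In LAO1KO mice DSS called 3 members with voom, 1 with DESeq2 and 2 without the pair, where 26.7%, 4.36% and 0.801% of genes were called, against 0.196% in edgeR's test. Guca2a was 0.42 with voom and 0.45 without the pair there, and without 1 library Guca2a ran from -0.32 to 0.44 and Guca2b from -0.0266 to 0.26. In DKO mice DSS called 1 member, Prkg2, with only the groups compared (0.184% of genes called) and 1 without the pair (0.328%). Guca2b was there at -0.0304 with voom and -0.0711 to 0.16 without 1 library, and Guca2a at -0.0114 to 0.0819.

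For DKO against WT on water 0 members were called with RLE factors (Guca2b 1.14, adjusted p = 0.0522), without the filter (1.15; 0.0654), with only the groups compared (1.17; 0.178), with voom (0.99; 0.0515) and without the pair (0.89; 0.163). Without 1 library 0 to 1 were called, with Guca2b at 0.89 to 1.36. The shares of all genes called in these fits of DKO against WT are not given here either. For LAO1KO against WT on water, 1 member, Guca2b, was called with voom (1.07; 4.96% of genes called) and 1 with DESeq2 (1.27; 1.86%), against 0.0531% in edgeR's test. Averaged over treatments, voom and DESeq2 called 1 member each for LAO1KO (0.546% and 0.199% of genes called) and for DKO against WT (1.29% and 0.983%), and leaving out 1 library called 0 to 1. Relative to Epcam or to colonocyte markers 2 members passed, and relative to epithelial markers Pde5a ran from -0.11 to 0.11 without 1 library. Over the other members in knockout comparisons with WT, 22 of 384 refits changed sign, and 0 of these passed. The cause of these shifts was not tested.

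Fits with the replicate letter as a block changed no call of a member, with Gucy2c at -0.40 (adjusted p = 0.0102) and Guca2b at 0.998 in WT under DSS (0.0227). The labels do not say that a letter pairs libraries, and the correlations below do not settle whether it does. Of 45 same-letter pairs 12 had a correlation above 0.1, against 18 of 90 other pairs. Same-letter libraries of different groups had a median correlation of deviations of 0.03, against -0.02 for other letters, and 8 of 18 libraries correlated best with their own letter. A block raised the genes called in the averaged DSS comparison to 3388, against 2996 without it, and in LAO1KO mice to 131, against 37. All members had enough counts to be tested, and their lowest count was 286.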
